A study of Mus musculus with 12 samples.

Results

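Negative regulators of cytokine signalling were followed in T cells with and without functional STING. Cytokines and interferons act through receptors bound to Janus kinases (JAKs), which phosphorylate STAT transcription factors, and several protein families dampen this relay. SOCS proteins are induced by STATs and switch off receptors and JAKs, phosphatases remove the phosphate from JAKs and STATs, PIAS proteins bind STATs and attach the small protein SUMO, and Usp18 shuts down the type I interferon receptor. In T cells this brake limits the response to interferons, IL-2 and related cytokines. The 10 genes were chosen by name, namely Socs1, Socs2, Socs3 and Cish of the SOCS family, Usp18, the phosphatases Ptpn2 and Ptpn6, and Pias1, Pias3 and Pias4. All 10 were found among the 38924 gene IDs of the count files, and all 10 passed the filter on low counts that kept 13811 genes.

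RNA was sequenced from CD4+ T cells of the spleens of C57BL/6 mice of 8 to 12 weeks, in 4 groups of 3 libraries: WT with DMSO, WT with CMA, STINGgt/gt with DMSO and STINGgt/gt with CMA. STINGgt/gt mice (Goldenticket, labelled as STING KO) carry a missense mutation of Tmem173, the gene of STING, and make no functional STING protein in any cell, so the genotype is not limited to T cells. CMA (10-carboxymethyl-9-acridanone) is a small molecule that activates mouse STING, and DMSO is its solvent. In all groups naive T cells were sorted, expanded by CD3 and CD28 antibodies for 2 days, rested for 1 day and then cultured with CMA or DMSO overnight, given as 16 h in the description of the series.

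The authors counted between 27414450 and 43784910 reads on genes per library (median 36418677). Levels are given as CPM, counts scaled to library size after TMM adjustment, and differences as log2 values from edgeR's quasi-likelihood model with p-values adjusted over all 13811 genes, 0.05 being the threshold. The study calls the libraries of a group biological replicates, and no source used here says whether they came from separate mice, so the p-values measure only the spread between these libraries. The Tmem173 mRNA did not differ between genotypes with DMSO beyond the threshold (log2 difference 0.10, adjusted p = 0.0827), and since a missense mutation can leave mRNA as it is, this gene is no check of the genotypes. Transcripts of T cells were abundant in all libraries. The 7 T-cell markers summed to 2866 to 2918 CPM in WT with DMSO, 2634 to 2641 in WT with CMA and 2950 to 3054 in STINGgt/gt T cells, and with CMA in WT 4 of the 7 were lower and 1, Cd4, was higher. The 6 B-cell markers together gave 253.3 to 265.5 CPM in WT with DMSO, 349.9 to 377.8 in WT with CMA and 114.1 to 121.8 in STINGgt/gt T cells. The 6 CD8 and natural killer cell markers gave 64.67 to 69.07, 48 to 49.49 and 28.01 to 29.39 CPM in the same order, and 7 myeloid markers 48.32 to 52.94, 63.85 to 68.8 and 34.61 to 39.08. Within the myeloid list Cst3 and Spi1 were higher with CMA in WT (38.64 to 55.73 and 4.288 to 7.08 CPM), whereas Lyz2 and Itgam were lower (3.251 to 1.159 and 3.314 to 1.024 CPM). None of these markers was at 0 in all libraries of a group, but of the genes that define macrophages Adgre1 stood at 6 counts or fewer in every library of both genotypes, and Csf1r at 7 to 18 counts in WT and 0 to 6 in STINGgt/gt libraries. These levels moved with genotype and with CMA, and their part in the results that follow was not tested. In such bulk samples fewer cells of a type cannot be told apart from less RNA per cell.

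The genes differed widely in level. Per kilobase of exon in WT T cells with DMSO, Ptpn6 was the most abundant (155.3 ± 3.73 CPM per kb, SD, n = 3), followed by Socs3 (79.5 ± 3.24) and Socs1 (68.8 ± 6.37). Ptpn2 (51.9 ± 2.85) and Cish (50.1 ± 4.88) lay within each other's spread. Pias4 (11.9 ± 0.954) and Pias1 (10.7 ± 0.391) followed, and both lay within the spread of Usp18 (10.5 ± 2.08). Pias3 (3.38 ± 0.154) and Socs2 (2.45 ± 0.0795) were the lowest. With CMA in WT, Usp18 stood at 171.5 ± 1.71 CPM per kb, above Ptpn6 at 147.6 ± 2.50, whereas in STINGgt/gt T cells with CMA it stood at 5.55 ± 0.138. The depth behind these levels was high for every gene, the smallest count of any of them in any library being 353 reads, for Pias3.

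**Figure D1:**
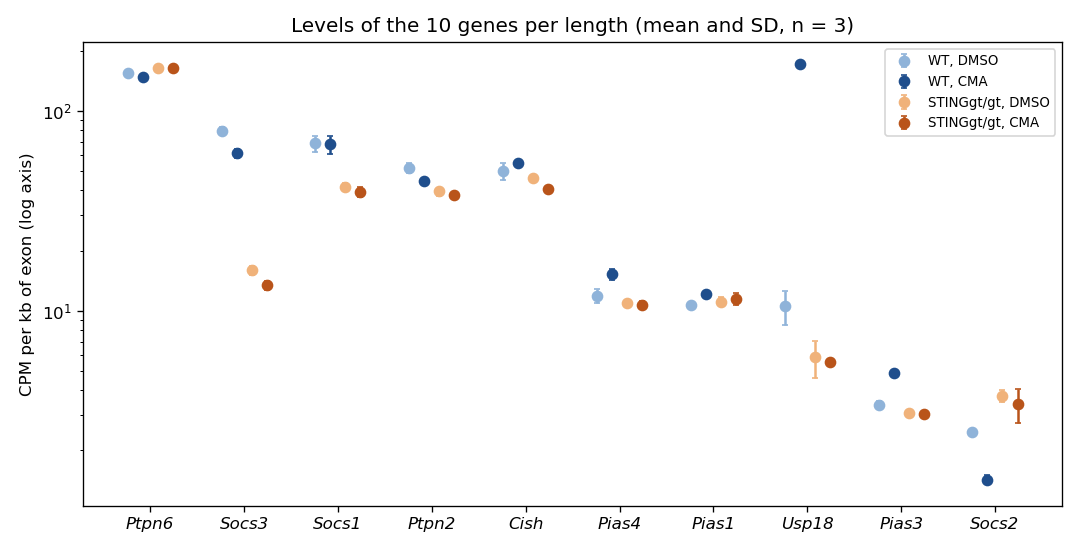
Mean level of each gene in CPM per kilobase of exon on a log axis, with the SD over 3 libraries, in the 4 groups. The genes are ordered by their level in WT with DMSO, from Ptpn6 at 155.3 down to Socs2 at 2.45, and Usp18 in WT with CMA (171.5) stands apart from its other groups.

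Promoters were read for the genes that have an entry in the RefSeq promoter set (GRCm38.p6, 250 bases before and 50 after a start), which were Socs1, Socs3, Cish, Ptpn6, Pias1 and Pias3. Socs2, Usp18, Ptpn2 and Pias4 were not looked at. The 2 motifs below were searched on both strands: TTCNNNGAA, the spacing that STAT proteins favour and which reads the same on both strands, and GAAA, any 2 bases and GAAA again (the GAAA pair), the core of elements bound by IRF proteins. Of all 32851 windows of 300 bases, 8.3% held TTCNNNGAA at least once and 0.457% at least 2 times, while 3.44% held the GAAA pair at least once and 0.225% at least 2 times. The 3 sequences are shown because the genes belong to the SOCS family, whose transcription STATs are known to drive, with the motif matches in capitals. The Socs1 stretch is chr16:10785537-10785786 (minus strand) and ends at the base before the start, the Socs3 stretch is chr11:117969457-117969566 (minus strand), and the Cish stretch is chr9:107296659-107296688 (plus strand) and begins at the RefSeq start. The Socs3 and Cish stretches lie inside the genes as the authors' table delimits them.
Socs1: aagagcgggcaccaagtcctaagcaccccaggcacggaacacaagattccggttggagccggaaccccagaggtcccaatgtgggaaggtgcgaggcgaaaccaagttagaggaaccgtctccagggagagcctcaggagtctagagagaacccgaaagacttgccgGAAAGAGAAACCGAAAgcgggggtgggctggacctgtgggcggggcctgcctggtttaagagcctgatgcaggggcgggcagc
Socs3: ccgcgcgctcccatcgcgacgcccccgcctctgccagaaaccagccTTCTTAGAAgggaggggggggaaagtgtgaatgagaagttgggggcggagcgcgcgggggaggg
Cish: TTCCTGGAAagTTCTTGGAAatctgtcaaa

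The Socs1 window held 2 overlapping matches of the GAAA pair, which begin 83 and 77 bases before the start, and none of TTCNNNGAA. Socs3 held a TTCNNNGAA match beginning 154 bases before the start. Cish held a pair of them at the first and the twelfth base of the RefSeq transcript. The windows of Ptpn6, Pias1 and Pias3 held neither motif, which says only that these letters are not within them. A match is a description of the sequence and not a measured binding site.

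The first comparison asked how the genes responded to CMA in T cells that can signal through STING. The study reports that culture with CMA overnight led to apoptosis of WT but not of STINGgt/gt T cells. The part of dying cells in the values below was not tested. Usp18 rose about 16-fold, Pias1, Pias3, Pias4 and Cish rose by less than 2-fold, and Socs2, Socs3 and Ptpn2 fell. Socs1 and Ptpn6 did not pass the test. Of the 10 genes, 8 passed it, 5 higher and 3 lower, where 70.4% of all tested genes passed, 33.0% higher and 37.4% lower. With scaling by library size alone the split was 4 higher and 4 lower, Cish no longer passing and Ptpn6 passing. The median log2 fold change of the 10 was 0.06, against -0.04 over all genes tested. The WT groups of 8 of the 10 genes did not overlap between treatments, as was the case for 71.1% of all tested genes. Both numbers are close to the background, and the values of the single genes carry the comparison.

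Usp18 (ENSMUSG00000030107, chromosome 6 of GRCm38, 121245906 to 121270916) encodes the protease that removes ISG15 from proteins and that also blocks signalling at the type I interferon receptor. In WT T cells it stood at 23.9, 28.6 and 35.5 CPM with DMSO and at 474.5, 477.0 and 483.7 CPM with CMA. In STINGgt/gt T cells the values were 14.9, 13.7 and 20.1 CPM with DMSO and 15.9, 15.2 and 15.3 CPM with CMA. All 3 CMA libraries of WT thus lay far above the other 9, and the CMA libraries of STINGgt/gt mice lay within the range of their DMSO libraries. In WT this was a 16.2-fold rise (4.02 ± 0.121 on the log2 scale, standard error; adjusted p = 3.97e-14). It was the gene ranked 128 by fold change among the 4560 genes that were higher with CMA. In STINGgt/gt the log2 fold change was -0.07 (95% confidence interval -0.34 to 0.21, adjusted p = 0.88). The difference of both effects was 4.08 ± 0.175 (log2, standard error; adjusted p = 1.14e-11). Gm44148, a long noncoding gene, overlaps Usp18 on the opposite strand, and the strand setting of the counting is not given in the sources used here.

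Socs2 (chromosome 10, 95385362 to 95417180), a regulator of growth hormone and other STAT5 signals, moved in the opposite direction. It was at 23.5, 22.6 and 24.1 CPM in WT with DMSO and at 12.7, 14.1 and 13.8 CPM with CMA. The STINGgt/gt libraries gave 34.6, 33.9 and 38.3 CPM with DMSO and 25.4, 34.1 and 37.4 CPM with CMA. The order of the groups was therefore STINGgt/gt above WT with DMSO and WT with CMA lowest, and only the 2 STINGgt/gt groups overlapped. Its log2 fold change in WT was -0.79 with a standard error of 0.112 (adjusted p = 9.4e-06). It was -0.14 in STINGgt/gt (interval -0.35 to 0.07, adjusted p = 0.607), and the difference of the effects was -0.65 (adjusted p = 0.0014).

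Socs3 (chromosome 11, 117966079 to 117970047), which binds JAKs at receptors of the IL-6 family, fell with CMA in both genotypes. In WT it went from 221.2, 239.8 and 228.6 CPM with DMSO to 180.8, 183.8 and 167.2 CPM with CMA. In STINGgt/gt it went from 45.2, 44.1 and 48.8 CPM to 40.1, 36.3 and 39.5 CPM. None of the 4 groups overlapped another, and the order was WT with DMSO, WT with CMA, STINGgt/gt with DMSO and STINGgt/gt with CMA. The effect of CMA was -0.37 in WT (log2, standard error 0.0526, adjusted p = 8.06e-06) and -0.25 in STINGgt/gt (standard error 0.0571, adjusted p = 0.0395). The effects did not differ beyond the threshold (difference -0.12, interval -0.29 to 0.04, adjusted p = 0.188).

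Socs3 was the 1 gene of the 10 that passed the test with CMA in STINGgt/gt T cells, where 1.32% of all tested genes passed, 0.920% of all being lower. The STINGgt/gt groups of 2 of the 10 genes, Socs3 and Cish, did not overlap between treatments, against 23.1% of all tested genes. This call was lost when any single library of the STINGgt/gt groups was left out (adjusted p between 0.0633 and 0.18), and when replicate 1 or 2 of WT with CMA was left out (0.0643 and 0.0526). It was also lost with a block by the first digit of the library name (0.171). The log2 fold change stayed between -0.28 and -0.21 over all alternatives.

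Cish (chromosome 9, 107296026 to 107302784) encodes a SOCS protein that is a known STAT5 target and restrains IL-2 and T cell receptor signals. With DMSO its values were 330.9, 347.7 and 287.0 CPM in WT and 290.2, 298.2 and 305.2 CPM in STINGgt/gt. With CMA they were 353.1, 366.7 and 340.5 CPM in WT and 266.4, 257.3 and 263.2 CPM in STINGgt/gt. CMA groups were thus separated between the genotypes while DMSO groups overlapped. The effect of CMA was 0.14 in WT (log2, standard error 0.0574, adjusted p = 0.0451), where the groups overlapped, and -0.18 in STINGgt/gt (standard error 0.0575, adjusted p = 0.156), where they did not. The effects differed by 0.32 (standard error 0.0813, adjusted p = 0.00303).

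The rise of Cish in WT was a close call. Without replicate 3 of WT with DMSO, the lowest of that group, the log2 fold change was 0.07 (adjusted p = 0.165). The call was also lost without replicate 1 or 2 of WT with CMA (adjusted p = 0.0885 and 0.173) or replicate 2 of STINGgt/gt with DMSO (0.0677). With only the 2 groups compared in the fit the call in WT was lost (adjusted p = 0.058) and the fall in STINGgt/gt passed the test (0.00521). That fall also passed with the replicate number as a block (0.0353) and without replicate 2 or 3 of WT with DMSO (0.0333 and 0.0113), whereas the difference of the effects passed it under every alternative but the 2-fold minimum. Cish overlaps Gm17040 and Gm17041 on the opposite strand.

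Socs1 (chromosome 16, 10783808 to 10785536) encodes the direct inhibitor of JAK kinase activity that restrains interferon responses. It gave 94.6, 99.2 and 82.7 CPM in WT with DMSO and 89.8, 101.4 and 82.3 CPM with CMA. In STINGgt/gt T cells the values were 56.55, 52.8 and 58.0 CPM with DMSO and 49.9, 52.3 and 56.2 CPM with CMA. The groups overlapped between treatments and were separated between genotypes. With CMA the log2 fold change was -0.01 in WT (interval -0.18 to 0.15, adjusted p = 0.878) and -0.08 in STINGgt/gt (-0.24 to 0.09, adjusted p = 0.733).

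The phosphatases gave small differences. Ptpn2 (chromosome 18, 67665511 to 67724595), which dephosphorylates JAK1, JAK3 and STATs, went in WT from 152.6, 164.1 and 170.1 CPM with DMSO to 138.8, 137.4 and 143.4 CPM with CMA. The groups did not overlap and differed by -0.21 (log2, standard error 0.0508, adjusted p = 0.00126). In STINGgt/gt its levels were 118.2 to 129.7 CPM with DMSO and 113.3 to 123.8 CPM with CMA (adjusted p = 0.634). The difference of the effects was -0.15 (adjusted p = 0.0878), and without replicate 1 of WT with DMSO it passed the test (-0.18, adjusted p = 0.047).

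Ptpn6 (chromosome 6, 124720707 to 124738714), the SHP-1 phosphatase of blood cells, was at 432.0, 447.0 and 426.6 CPM in WT with DMSO and at 415.8, 419.3 and 405.7 CPM with CMA. Although these groups did not overlap, the log2 fold change of -0.07 did not pass the test (standard error 0.0386, adjusted p = 0.101). In STINGgt/gt it was 0.01 (interval -0.07 to 0.10). Gm20531 overlaps the gene on the opposite strand.

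The PIAS genes encode SUMO ligases that bind STATs and hinder their activity. Pias3 (chromosome 3, 96696384 to 96706070), known as a partner of STAT3, had the largest fold change of the 3 PIAS genes among the 10. Its values in WT were 12.85, 13.9 and 12.9 CPM with DMSO and 19.6, 19.3 and 18.6 CPM with CMA, and in STINGgt/gt 12.4, 11.8 and 11.8 CPM with DMSO and 12.1, 12.0 and 11.7 CPM with CMA. The 3 WT libraries with CMA stood above the other 9, which lay between 11.7 and 13.9 CPM. The effect of CMA was 0.54 in WT (log2, standard error 0.0584, adjusted p = 4.34e-07) and -0.01 in STINGgt/gt (adjusted p = 0.959), and the effects differed by 0.55 (adjusted p = 3.28e-05). Nudt17 overlaps Pias3 on the opposite strand.

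Pias4 (chromosome 10, 81153266 to 81167923), known to act on STAT4 among others, showed the same layout at a smaller size. It was at 45.5, 46.5 and 39.9 CPM in WT with DMSO and at 54.85, 60.2 and 53.3 CPM with CMA, and the STINGgt/gt libraries lay between 37.8 and 41.1 CPM. The effect of CMA was 0.36 in WT (log2, standard error 0.0618, adjusted p = 7.88e-05) and -0.02 in STINGgt/gt (adjusted p = 0.908), a difference of 0.38 (adjusted p = 0.00146).

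Pias1 (chromosome 9, 62880077 to 62980879), another SUMO ligase gene, rose in WT from 55.35, 51.8 and 55.0 CPM to 59.1, 62.7 and 62.2 CPM. The rise was 0.18 on the log2 scale with a standard error of 0.0561 (adjusted p = 0.00831). In STINGgt/gt it was 0.05 (adjusted p = 0.757), and the effects did not differ beyond the threshold (0.13, interval -0.04 to 0.30, adjusted p = 0.166). In the test of the difference between genotypes, 5 of the 10 genes passed, namely Usp18, Pias3, Pias4 and Cish with a higher and Socs2 with a lower effect in WT. Of all tested genes 58.8% passed that test, 27.2% higher and 31.6% lower. Scaling by library size alone added Ptpn2 to the lower effects, giving 4 higher and 2 lower.

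**Figure D2:**
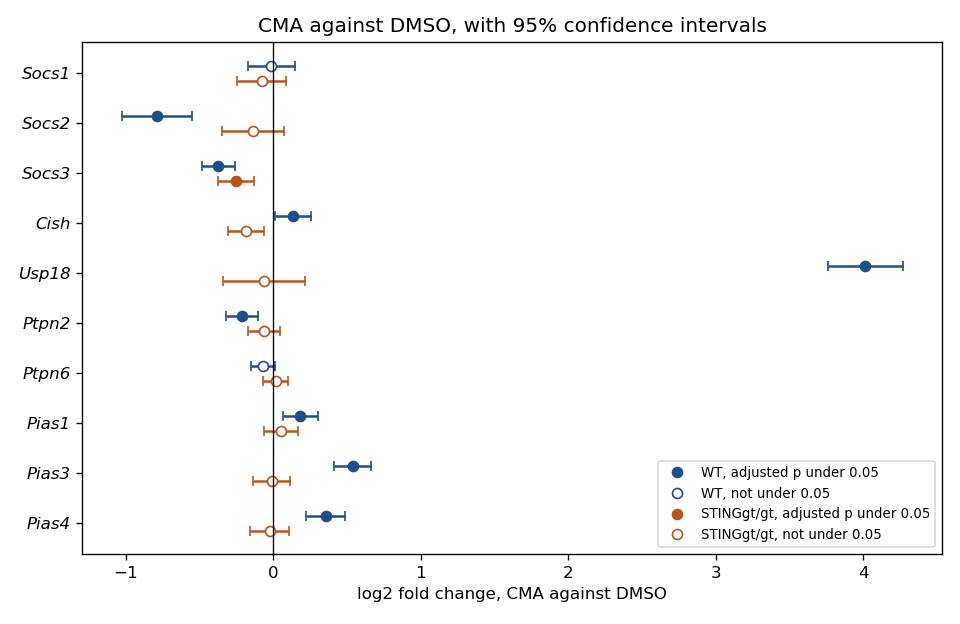
Log2 fold change of each gene with CMA against DMSO (horizontal axis) in WT and STINGgt/gt T cells, with 95% confidence intervals; filled points passed the test. Usp18 in WT lies at 4.02, all other values lie between -0.79 and 0.54, and Socs3 is the 1 gene with a filled point in STINGgt/gt.

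**Figure D3:**
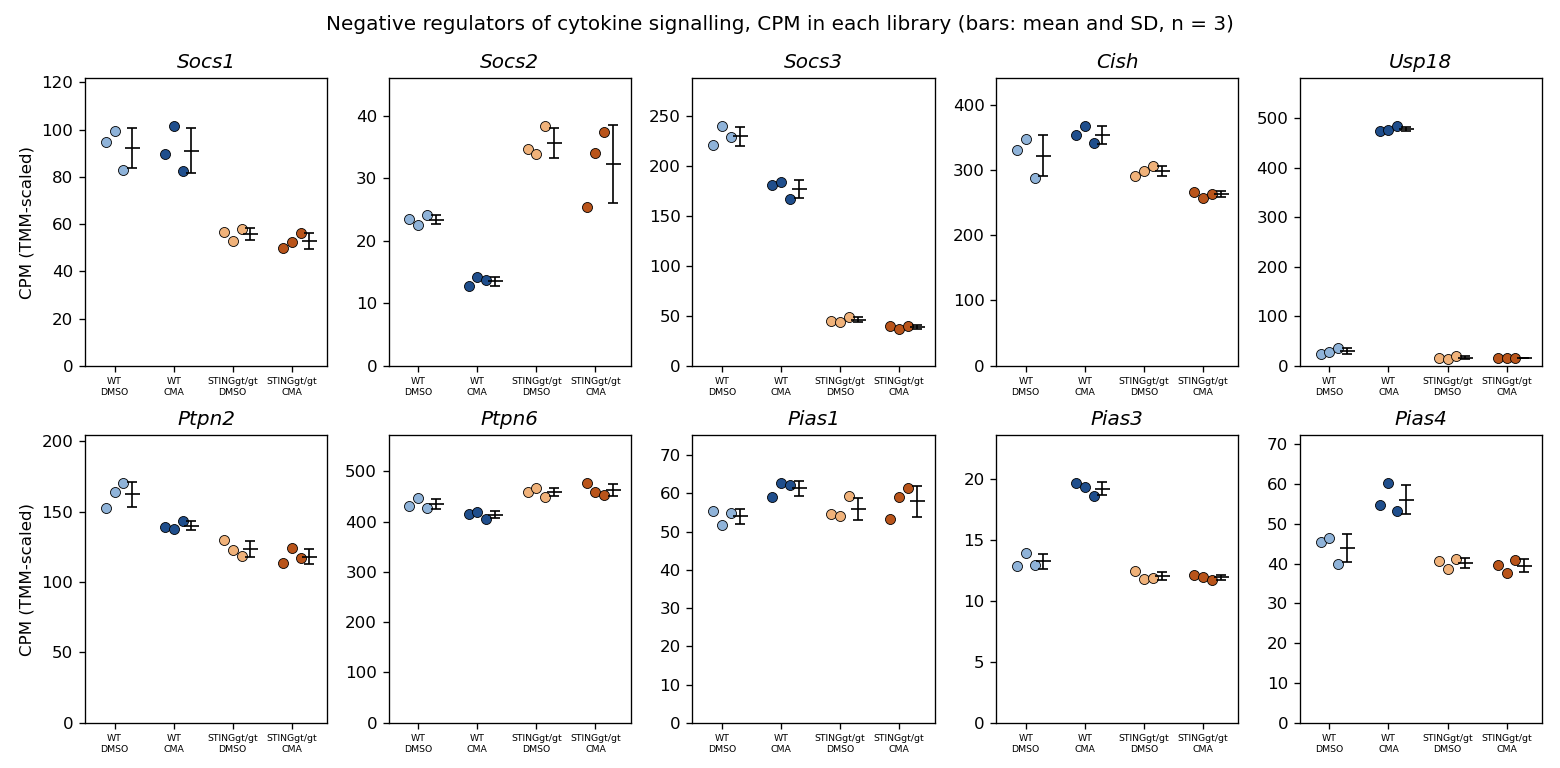
CPM of each gene in each of the 12 libraries (points) with the group mean and SD over 3 libraries, on axes that start at 0. Usp18, Pias3 and Pias4 are highest in the 3 WT libraries with CMA, Socs3 and Socs1 are higher in all 6 WT libraries than in all STINGgt/gt libraries, and Socs2 is lower in all WT than in all STINGgt/gt libraries.

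The second comparison set WT against STINGgt/gt T cells that had received DMSO, which asks whether the brakes differed without CMA. Socs3 was 5-fold higher in WT, Socs1, Usp18 and Ptpn2 were higher by less than 2-fold, and Socs2 was lower. Of the 10 genes 5 passed the test, 4 higher and 1 lower, against 42.7% of all tested genes, 22.9% higher and 19.8% lower. With library-size scaling and with DESeq2 Ptpn6 was also lower, giving 4 higher and 2 lower. Their median log2 difference was 0.13, against -0.00184 over all genes tested. The DMSO groups of 7 of the 10 genes did not overlap, as was the case for 47.9% of all tested genes.

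The Socs3 difference was 2.32 on the log2 scale (standard error 0.0565, adjusted p = 7.31e-14). It was the gene ranked 156 by size among the 3160 genes that were higher in WT. Over the alternatives it lay between 2.28 and 2.36. Usp18 differed by 0.87 (standard error 0.126, adjusted p = 3.86e-05) and Socs1 by 0.72 (standard error 0.0773, adjusted p = 1.38e-06). Ptpn2 differed by 0.39 (adjusted p = 1.12e-05) and Socs2 by -0.61 (standard error 0.103, adjusted p = 0.000177). The B-cell, CD8, natural killer and myeloid markers given above were higher in WT as well, with 6 of 6, 5 of 6 and 6 of 6 tested markers of the 3 lists passing the test, among the last Csf1r and Cd14, which were tested only because of their level in WT.

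The other 5 genes did not pass. Pias3 differed by 0.14 (adjusted p = 0.0787), Pias4 by 0.13 (0.11) and Cish by 0.11 (0.134), while Pias1 differed by -0.05 (0.506) and Ptpn6 by -0.08 (0.131). Without replicate 3 of WT with DMSO, Cish (0.18, adjusted p = 0.00199) and Pias4 (0.19, adjusted p = 0.0105) passed the test. That library differed most from replicate 2 of its group, the chi-square of their counts being 29.9 per degree of freedom, while replicate 1 stood about as far from replicate 2 (10.1) as from replicate 3 (9.98). Pairs within the other groups gave 2.63 to 6.82.

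With CMA, 9 of the 10 genes differed between the genotypes, 7 higher and 2 lower in WT, where 73.5% of all tested genes did, 37.0% higher and 36.5% lower. Usp18 was 30.9-fold higher in WT (log2 difference 4.95, adjusted p = 4.66e-15) and Socs3 was 4.59-fold higher (2.20, adjusted p = 4.62e-15). Socs1 (0.79), Pias3 (0.69), Pias4 (0.51), Cish (0.43) and Ptpn2 (0.25) were higher too, with adjusted p-values of at most 0.000372. Socs2 (-1.26, adjusted p = 2.02e-08) and Ptpn6 (-0.16, adjusted p = 0.00118) were lower. Pias1 did not pass (0.08, adjusted p = 0.199). The CMA groups of 9 of the 10 genes did not overlap between genotypes, against 78.9% of all tested genes. These values share their libraries with the comparisons above and are not independent of them.

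**Figure D4:**
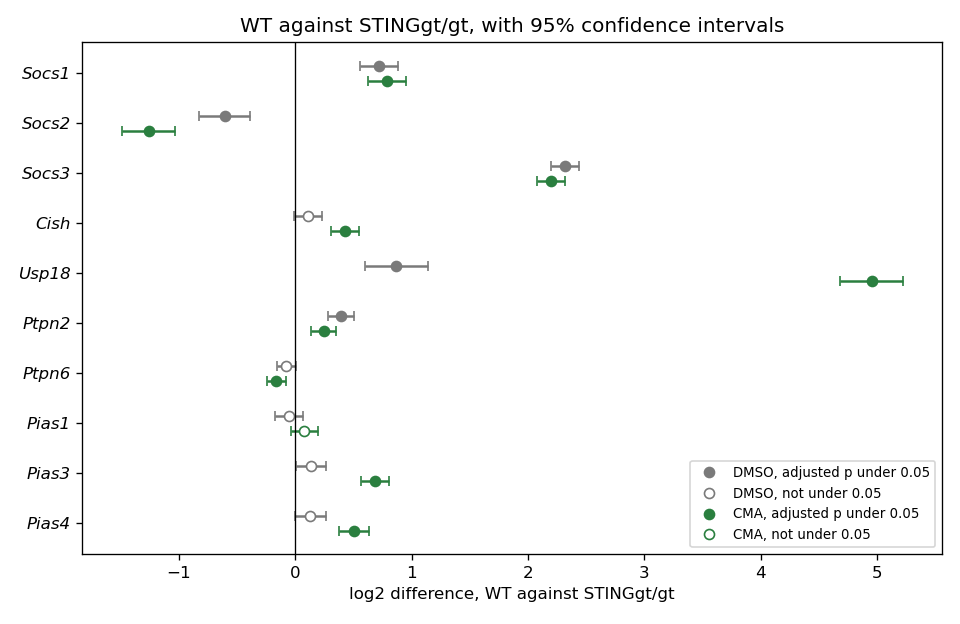
Log2 difference of each gene between WT and STINGgt/gt T cells (horizontal axis, positive where WT is higher) with DMSO and with CMA, with 95% confidence intervals; filled points passed the test. Socs3 lies above 2 with both treatments, Socs2 lies below 0 with both, and Usp18 goes from 0.87 with DMSO to 4.95 with CMA.

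The genes around these brakes were read from lists of ligands, receptors, kinases, targets and partner enzymes. Their counts stand beside those of all tested genes, of which 33.0% were higher and 37.4% lower with CMA in WT, and 22.9% higher and 19.8% lower in WT than in STINGgt/gt with DMSO. Among 12 further brakes, namely SOCS, PIAS and phosphatase genes with the adaptor gene Sh2b3 and the ubiquitin ligase genes Cbl and Cblb, 7 were higher and 2 lower with CMA in WT T cells (median log2 fold change 0.20). Socs5 rose from 19.1 ± 2.24 to 45.0 ± 1.498 CPM (SD, n = 3; 1.23, adjusted p = 1.65e-10) and Pias2 from 116.7 ± 8.10 to 215.8 ± 5.53 CPM (0.89, adjusted p = 8.28e-11). Sh2b3, the JAK adaptor LNK, rose by 0.57 (adjusted p = 1.95e-08). With DMSO 4 of the 12 were higher in WT than in STINGgt/gt and 1, Sh2b3, was lower (-0.24, adjusted p = 0.000738). The phosphatases Ptpn1 and Ptpn22 were higher by 0.32 (adjusted p = 1.24e-05) and 0.42 (adjusted p = 9.12e-07).

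Of 14 cytokine and interferon genes, the ligands that act through these receptors, 12 could be tested. Of these, Ifnb1, Il10 and Il27 reached the level asked for by the filter in no STINGgt/gt library and were tested because they were high in WT, so that they are left out of the counts given here. Of the other 9, with CMA in WT 5 were higher and 1 lower. Il15 went from 0.502 ± 0.133 to 9.72 ± 0.432 CPM (log2 fold change 4.30, adjusted p = 2.06e-13) and Il2 from 3.40 ± 0.297 to 20.9 ± 2.53 CPM (2.63, adjusted p = 1.22e-11), both SD with n = 3. Lif, a cytokine of the IL-6 family, rose by 0.82 (adjusted p = 8.39e-10). With DMSO 7 of the 9 were higher in WT than in STINGgt/gt and 1 was lower. Il21, whose product signals through STAT3, was at 80.85 ± 8.74 CPM in WT and 2.46 ± 0.139 CPM in STINGgt/gt (log2 difference 5.04, adjusted p = 2.15e-13), and Ifng at 56.8 ± 0.593 and 11.9 ± 0.847 CPM (2.25, adjusted p = 1.05e-11).

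Of 17 cytokine receptor genes, 8 were higher and 4 lower with CMA in WT (median 0.09). Ifnar1, a chain of the type I interferon receptor, rose by 0.98 (adjusted p = 8.97e-12), Il7r by 1.16 (adjusted p = 9.43e-12) and Il10ra by 1.19 (adjusted p = 2e-11). With DMSO 8 were higher and 3 lower in WT, with Il7r at 72.3 ± 2.11 against 23.6 ± 2.11 CPM (SD, n = 3; 1.62, adjusted p = 3.91e-12) and Il12rb2 higher by 1.297 (adjusted p = 7.36e-12).

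Of 10 JAK and STAT genes, the kinases and transcription factors that the brakes act on, 6 were higher and 1 lower with CMA in WT (median 0.36). Stat2 rose from 162.0 ± 8.78 to 639.3 ± 14.1 CPM (SD, n = 3; 1.98, adjusted p = 3.77e-14), Stat4 by 1.28 (adjusted p = 1.64e-13) and the kinase gene Tyk2 by 1.12 (adjusted p = 9.42e-12). With DMSO 4 were higher in WT and none lower, Stat5a by 0.40 (adjusted p = 2.44e-06) and Stat5b by 0.35 (adjusted p = 5.72e-06) being higher.

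Of 8 genes known as STAT5 targets, 3 were higher with CMA in WT (median 0.14) and none lower. They were Pim1 (0.93, adjusted p = 2.32e-12), Ccnd2 (1.12, adjusted p = 2.9e-12) and Pim2 (0.71, adjusted p = 4.46e-10). With DMSO 4 of the 8 were higher and 2 lower in WT. Il2ra, the alpha chain of the IL-2 receptor, was higher by 0.57 (adjusted p = 2.86e-08) and Pim2 lower (-0.57, adjusted p = 3.58e-08).

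The partner enzymes of Usp18, the SOCS proteins and the PIAS proteins were read last. All 5 genes of ISG15 and its conjugation, which Usp18 opposes, rose with CMA in WT, with a median log2 fold change of 2.55. Isg15 itself went from 11.7 ± 2.09 to 426.5 ± 18.7 CPM (SD, n = 3; 5.17, adjusted p = 1.54e-15), the ligase gene Herc6 rose by 4.08 (adjusted p = 2.5e-17) and Trim25 by 1.91 (adjusted p = 3.33e-15). With DMSO 2 of the 5 were lower in WT, Uba7 (-0.33, adjusted p = 0.000666) and Ube2l6 (-0.32, adjusted p = 0.0014), whereas Usp18 was higher.

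SOCS proteins recruit a ubiquitin ligase made of elongins, a cullin and a RING protein. The 5 subunit genes found all fell with CMA in WT, with a median of -0.29. Cul5 fell from 79.0 ± 7.10 to 54.4 ± 0.287 CPM (SD, n = 3; -0.54, adjusted p = 2.69e-07), and Rnf7 (-0.35, adjusted p = 7.36e-06) and Tceb2, which encodes elongin B (-0.29, adjusted p = 8.18e-05), fell as well. With DMSO 3 of them were higher in WT, among them Rbx1 (0.22, adjusted p = 0.000631) and Tceb1 (0.15, adjusted p = 0.0285).

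Of 12 SUMO pathway genes, 6 were higher and 4 lower with CMA in WT (median 0.07). Sae1 (-0.44, adjusted p = 5.5e-08) and Uba2 (-0.45, adjusted p = 1.85e-07), which encode the subunits of the SUMO-activating enzyme, and Sumo3 (-0.30, adjusted p = 1.13e-05) fell while the SUMO ligase genes Pias1, Pias3 and Pias4 rose. With DMSO 1 of the 12 was higher and 4 were lower in WT. Among the lower were Senp1 (-0.20, adjusted p = 0.00654) and Senp2 (-0.16, adjusted p = 0.00695), which encode proteases that remove SUMO.

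**Figure D5:**
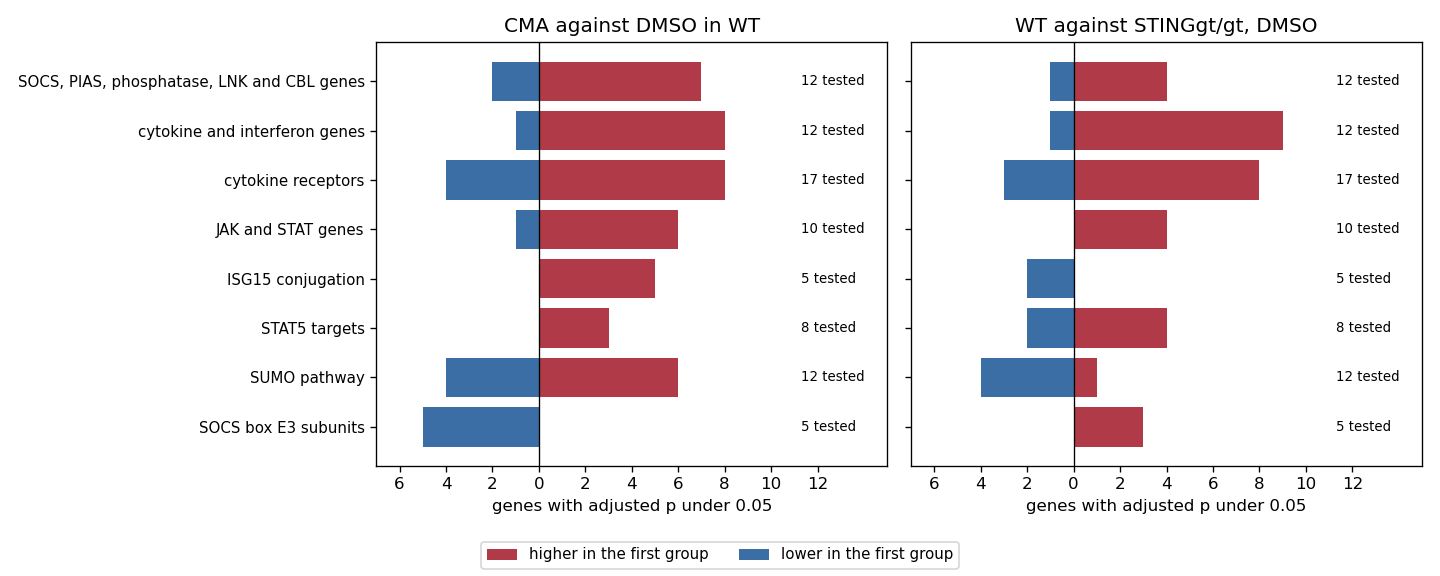
Number of genes in each list that passed the test, higher to the right and lower to the left of 0, for CMA against DMSO in WT (left) and for WT against STINGgt/gt with DMSO (right), with the number tested. The cytokine bars also count Ifnb1, Il10 and Il27 where they passed. The 5 ISG15 conjugation genes were all higher and the 5 SOCS box E3 subunits all lower with CMA in WT.

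The genes whose pattern over the 12 libraries was most like that of 5 of the brakes were sought among 9761 genes by Pearson's r of log2 CPM. Usp18 was nearest to Ddx58 (r = 0.9978) and Oasl1 (0.9972), both known interferon-stimulated genes. Socs3 was nearest to Fosl2 (0.9989) and Gem (0.9981), Socs1 to Aplp1 (0.9867) and Rhbdf2 (0.9803), Socs2 to Pdcd4 (0.986) and Stk39 (0.9835), and Cish to Tcf25 (0.99) and Trappc6a (0.9817). The 12 points share 4 groups of 3, so that these values largely follow the group means and are given as a description.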

How the data were processed

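Messenger RNA of 12 libraries was sequenced with a strand-keeping kit. The authors deposited, for each library, the unnormalized counts of 38924 Ensembl gene IDs, and a log2 expression table of 11921 genes, whose values are normalized. The submitters' processing notes name cutadapt 1.3, STAR 2.4.0f1, HTSeq 0.6.1, RSEM 1.2.16 and GRCm38; the role of each and the strand setting are not given in the sources used here. Tally lines that name no gene stayed out of library sizes and tests; they were alignments that were not unique (27.8% to 30.3% of all entries), reads outside genes (4.86% to 7.16%) and ambiguous reads (0.594% to 0.635%). Positions are those of the deposited table, exon lengths are from GENCODE M21 within those positions, and gene names are from the table or, for 25762 IDs, from a reference list.

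The counts were fitted with edgeR 4.0.16 (R 4.3.3), with glmQLFit and glmQLFTest, TMM scaling, filterByExpr by group and 1 model of all 4 groups that had no block. Adjustment was by Benjamini-Hochberg, and standard errors are the log2 value divided by the root of F. The model was tested on simulated data, with means taken from the libraries, for CMA against DMSO in WT. It recovered 158 of 200 genes changed by 1.5-fold or 2-fold among 13576 and called 8 unchanged ones. The simulated counts came from the same kind of model as the one fitted, with as many genes raised as lowered. In the real comparison 70.4% of tested genes passed, a setting that the simulation did not cover. Correlations used log2 CPM with a prior count of 2 over genes with a mean of at least 5 CPM.

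The 10 genes and all lists were chosen with earlier results of these data known. The genes named are the 10, from each list up to 3 with the smallest p with CMA in WT and up to 2 with the smallest p between genotypes with DMSO, the 2 most correlated genes for 5 of the 10, and Tmem173. Some items of the lists are not reported here. Alternatives were library-size scaling, DESeq2 1.42.0, limma-voom (limma 3.58.1), limma on the deposited log2 values, dropping the filter, requiring 10 counts or more in every library, an adjusted p under 0.01, a 2-fold minimum, only the groups compared, 2 replicate blocks and leaving out each library. With 3 libraries per group an exact two-sided permutation test cannot give a p below 0.1.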

Additional observations from a re-analysis of the deposited data

Results flagged for a closer look

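For 5 of the 10 genes the response to CMA depended on the genotype by edgeR's test of the difference itself, which 58.8% of all tested genes passed. The difference of the effects, as log2 values with WT minus STINGgt/gt, was Usp18 (4.08), Pias3 (0.548), Pias4 (0.379), Cish (0.319) and Socs2 (-0.651). In STINGgt/gt T cells none of these 5 genes passed edgeR's test with CMA (0 of 5, also in DESeq2 and limma-voom; 1 of 5, Cish, had an unadjusted p under 0.05 and passed in 4 of 23 alternatives), and their adjusted p-values there lay between 0.156 for Cish and 0.959 for Pias3.

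All 24 genes that were named from the lists for their response to CMA in WT differed in the same test. They were chosen for a small p in WT, so that such a difference is not independent of the choice. Among the further brakes the values were Pias2 (0.786), Socs5 (1.05) and Sh2b3 (0.531). Among the cytokines they were Il15 (4.88), Il2 (1.81) and Lif (0.888), and among the receptors Ifnar1 (1.04), Il7r (1.58) and Il10ra (1.26). The JAK and STAT genes gave Stat2 (1.98), Stat4 (1.22) and Tyk2 (1.1), and the genes of ISG15 conjugation Herc6 (4.19), Isg15 (5.28) and Trim25 (1.88). STAT5 targets gave Pim1 (0.919), Ccnd2 (1.06) and Pim2 (0.631). The effect in WT was lower for the SUMO genes Sae1 (-0.461), Uba2 (-0.455) and Sumo3 (-0.387) and for the ligase subunits Cul5 (-0.529), Rnf7 (-0.348) and Tceb2 (-0.204).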

How the results depend on the processing

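Each of the 50 differences reported for the 10 genes was recomputed under the alternatives, 1120 values in all. None of those past the threshold in either fit reversed; 7 differences that passed under no setting took either sign. Of the 1120 values 1070 kept their side of the threshold, 39 no longer passed (22 of them under the 2-fold minimum) and 11 came to pass. The number of the 10 genes that passed stayed within 1.5 times except as follows. The 2-fold minimum left 1 with CMA in WT (Usp18), 1 in the difference of the effects (Usp18), 1 between genotypes with DMSO (Socs3) and 3 with CMA (Usp18, Socs3 and Socs2). For CMA in STINGgt/gt the 1 gene became 0 under an adjusted p of 0.01, the 2-fold minimum and a block by the first digit of the library name. The number became 2 (Socs3 and Cish) with only the groups compared and with the replicate number as a block. Leaving out single libraries gave 0 to 2, and the numbers for CMA in WT ran from 7 to 8, for the difference from 5 to 6, between genotypes from 5 to 7 with DMSO and stayed at 9 with CMA.

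Library-size scaling removed the call of Cish with CMA in WT (adjusted p = 0.123) and added those of Ptpn6 (0.0329), of the difference for Ptpn2 (0.0365) and of Ptpn6 between genotypes with DMSO (0.0489). DESeq2 also called the last (0.0309). Only the groups compared removed Cish with CMA in WT (0.058) and added it in STINGgt/gt (0.00521). The cause of these shifts was not tested.

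Same-numbered libraries of the treatments deviated together only weakly (WT correlations of 0.00195, 0.104 and 0.132, STINGgt/gt correlations of 0.0634, 0.0597 and 0.0585). The labels do not state that the number pairs libraries, and the main model had no block. In 5 of the 6 pairs the library names also share their first digit, whose meaning the labels do not give. With the number as a replicate block, 2 genes passed for CMA in STINGgt/gt, Cish (adjusted p = 0.0353) being added to Socs3. With a replicate block by the first digit of the library name 0 passed there, Socs3 standing at 0.171. The small number of libraries in a group limits the precision, and each of the 10 genes had 353 reads or more in every library.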

Other observations

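In STINGgt/gt T cells, where 1.32% of all tested genes passed the test with CMA, 4 genes of the lists passed it. They were chosen after their values were seen. The cytokine gene Il2 was higher (log2 fold change 0.82, adjusted p = 0.00243, edgeR). The receptor genes Il7r (-0.42, 0.00271) and Ifngr2 (-0.27, 0.0242) and the STAT5 target Bcl2 (-0.27, 0.035) were lower. Of 23 alternatives the call was lost in 1 each for Il2 and Il7r, in 8 for Ifngr2 and in 12 for Bcl2. Il7r and Ifngr2 had moved the other way in WT, where both rose.

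With CMA the 9 cytokine and interferon genes that reached the level of the filter in both genotypes were higher in WT than in STINGgt/gt T cells (edgeR), and so were all 5 genes of ISG15 conjugation (median log2 difference 2.35), where 37.0% of all tested genes were higher. Of the 10 JAK and STAT genes 8 were higher, and of the 17 receptor genes 11 were higher and 3 lower. Of the markers of other cells, 6 of 6 for B cells, 5 of 6 tested for myeloid cells (Csf1r and Cd14 being tested only because of their level in WT) and 4 of 6 for CD8 and natural killer cells were higher in WT in the same comparison, while Klrb1c and Ncr1 of the last list were lower. Their part in these counts was not tested.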
